A study of Arabidopsis thaliana with 8 samples.

Results

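The 5 genes described here are OSM34 (AT4G11650), PELPK1 (AT5G09530), MLP28 (AT1G70830), GLTP2 (AT1G21360) and STR18 (AT5G66170) of Arabidopsis thaliana. Their probes lay below wild type in 8-week stems that overexpressed the NAC transcription factor gene SND2. Whether the probe listed under GLTP2 measures that gene was not settled. The 5 genes were taken by name, 1 probe each, out of 37685 probes with values. Their 8-week ratios chose them, so those ratios are given as a description without a test, and so is every comparison of the 8-week with the 4-week values. The 4-week values carry the only tests of these genes. The genes were chosen with earlier results of these data known, so the 4-week values may not be free of that choice. The platform annotation named the probes of OSM34 and STR18, and the probes of PELPK1, MLP28 and GLTP2 were named only through the study's own list of genes called at 8 weeks.

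Transcripts were measured on 2-colour Agilent arrays, on each of which SND2-OV(A) was hybridized against wild type. SND2-OV(A) is a single homozygous line of the T4 generation in the Col-0 background, with the SND2 coding sequence in the vector pMDC32, which drives it constitutively, and wild type was Col-0. The 3 biological replicates of either age were pools, of 6 plants from each genotype at 8 weeks and of 10 at 4 weeks. The lowest 100 mm of the primary inflorescence stem was sampled. By the paper the 4-week stems were little taller than this, so nearly the whole stem was taken at that age. The part and maturity of the stem may thus differ between the ages, which cannot be told apart from age. The methods describe hygromycin selection for the 8-week plants and none for the 4-week plants, whereas the sample labels give hygromycin for all, so age cannot be told apart from selection. Replicate 1 was hybridized on 2 arrays with the dyes swapped, which were averaged. In replicate 2 the line carried Cy3 and in replicate 3 it carried Cy5. Values below are the line's signal over that of wild type on a log2 scale, so that a negative ratio means less signal in SND2-OV(A). In such bulk samples a stem with fewer cells of a type and a stem with less RNA per cell cannot be told apart.

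SND2 itself, the check of the overexpressed gene, had log2 ratios of 7.25, 5.23 and 7.60 in the 8-week replicates and of 2.97, 2.75 and 3.37 in the 4-week replicates. Its probe was above wild type on all 8 arrays. Array medians lay between -0.11 and 0.06. One array stood apart: on the 8-week replicate 1 array with the line in Cy5 the ratios of all probes had an SD of 1.01, against 0.31 to 0.35 on the other 8-week arrays, and 506 probes lay below -3 there, none of which was below -3 on another 8-week array. This limit of -3 was set after the array had been seen. None of the 5 genes was among those probes, and their values are given with and without that array.

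Plants answer microbes, drought, cold and wounding partly with small proteins that are secreted, kept in the wall or bound to lipids, and such genes are often induced together by salicylic acid, jasmonate or abscisic acid. OSM34 is an osmotin of the thaumatin-like family, to which the pathogenesis-related osmotins of tobacco also belong. PELPK1 is a proline-rich protein of the cell wall built from short repeats that give it its name. MLP28 belongs to the major latex protein family, small proteins with a hydrophobic pocket. GLTP2 is named for its likeness to glycolipid transfer proteins, which move sphingolipids between membranes. STR18 is a small sulfurtransferase with a rhodanese domain, a fold that passes sulfur between thiols.

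The probe listed under GLTP2 needs a separate word. It is probe 33530, and the transcript identifier printed beside it in the study's list belongs in RefSeq to LTP2 (AT2G38530), not to GLTP2. LTP2 encodes a secreted lipid transfer protein, a family of small cysteine-rich proteins unrelated to glycolipid transfer proteins, and its gene lies next to that of LTP1, listed as LP1 in RefSeq. Of the 208 probes of that list with such an identifier, 5 carried a gene name that their identifier contradicts. The value is therefore given below for probe 33530, and which of GLTP2 and LTP2 it measures was not settled. Probes outside the 5 that came from the study's lists were named by their identifier where RefSeq held it. By that rule probe 33530 would be LTP2, but it entered under the gene name of the study's list. The identifiers of the probes for OSM34, PELPK1, MLP28 and STR18 matched their genes.

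At 8 weeks all 5 genes lay below wild type in 3 of 3 replicates and on 4 of 4 arrays, and 4 of them, all but STR18, were over 1.5-fold lower on average. Over all probes, 18.3% lay below wild type in all 3 replicates, 8.6% on all 4 arrays, and 2.76% were over 1.5-fold lower (2.12% with replicate 1 taken from its array with the line in Cy3 only). The members had been chosen for being low there, so nothing is read from these counts. The median of the 5 mean log2 ratios was -0.83 at 8 weeks and 0.03 at 4 weeks, beside -0.03 and -0.00 for all probes at the same ages. At 4 weeks 0 of 5 lay below wild type in all 3 replicates and 1, MLP28, above it, where the shares of all probes were 7.98% and 8.91%. At that age 0 of 5 were over 1.5-fold different in either direction, where the share of all probes was 2.57%.

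**Figure D1:**
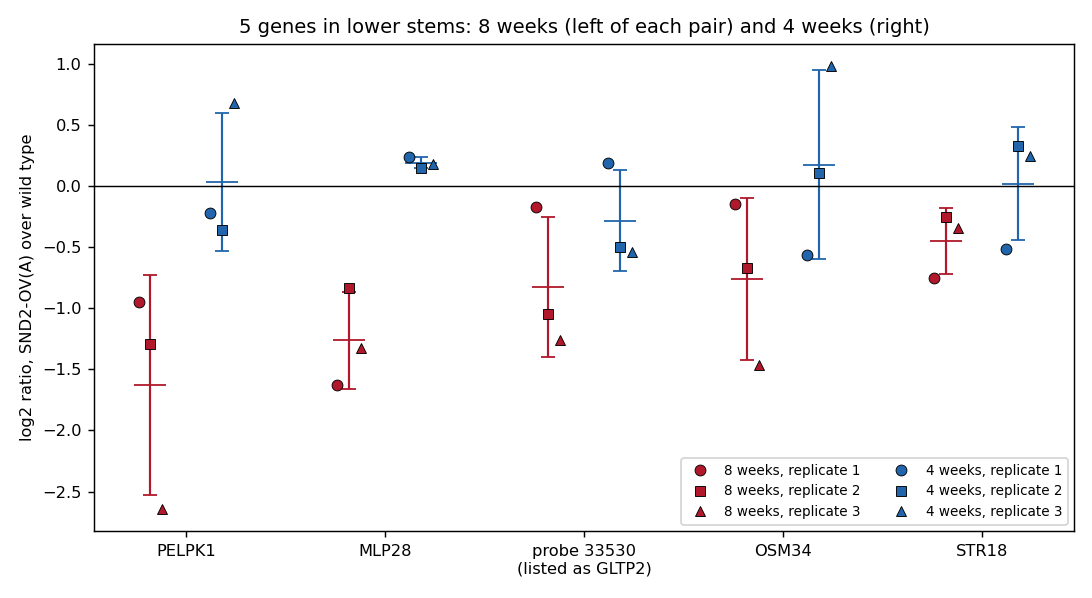
Log2 ratio of SND2-OV(A) over wild type for the 5 genes at 8 weeks (red, left of each pair) and 4 weeks (blue, right). Symbols are the 3 replicates, horizontal bars their mean and whiskers the SD; all 15 values of 8 weeks lie below 0, against 6 of the 15 values of 4 weeks.

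By the 8-week mean PELPK1 was the lowest of the 5 genes. Its log2 ratios were -0.95, -1.29 and -2.64 in 8-week replicates 1, 2 and 3, against -0.22, -0.36 and 0.68 in the 4-week replicates. Every 8-week replicate lay below every 4-week replicate, with replicate 3 far below the others. The mean of -1.63 ± 0.90 (SD, n = 3) at 8 weeks is 3.09-fold below wild type. The spread behind it was wide, since the SD exceeded that of 97.0% of probes. The dye-swapped arrays of the same RNA gave -1.40 with the line in Cy5 and -0.50 with the line in Cy3, a gap larger than that of 96.2% of probes. On the genome PELPK1 stands beside its homologue PELPK2, and cross-hybridization between them was not tested.

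OSM34 had log2 ratios of -0.14, -0.67 and -1.47 in the 8-week replicates, a mean of -0.76 ± 0.67 (SD, n = 3), 1.69-fold below wild type. In the 4-week replicates it had -0.56, 0.11 and 0.98, a mean of 0.18 ± 0.77 (SD, n = 3). The replicates of the 2 ages overlapped. At 8 weeks replicate 1 was close to wild type and replicate 3 the lowest, while at 4 weeks replicate 3 was the highest. Without replicate 3 the 8-week mean was -0.41. The 4-week value of replicate 1 averages a pair that went opposite ways, at 0.55 with the line in Cy5 and -1.67 with the line in Cy3. This gap of 2.22 exceeded that of 96.3% of probes, and with only the Cy3 array of replicate 1 the 4-week mean was -0.19.

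MLP28, the small hydrophobic-pocket protein, had the smallest SD of the 5 at 4 weeks, and at 8 weeks the second smallest after STR18. Its 8-week log2 ratios were -1.63, -0.84 and -1.32, with a mean of -1.26 ± 0.40 (SD, n = 3), 2.40-fold below wild type. The 4-week replicates gave 0.24, 0.15 and 0.18, a mean of 0.19 ± 0.04 (SD, n = 3). Thus each 8-week replicate was below wild type and each 4-week replicate slightly above it, a combination found in 1.52% of all probes. MLP28 was chosen for being low at 8 weeks, so nothing is read from that share. The 4-week part alone was found in 8.91% of all probes. The dye-swapped arrays of 8-week replicate 1 were close to each other, at -1.58 with the line in Cy5 and -1.67 with the line in Cy3. The next genes along the chromosome, MLP31 and MLP34, are of the same family, and cross-hybridization of the MLP28 probe with them was not tested.

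Probe 33530, listed under GLTP2, had 8-week log2 ratios of -0.17, -1.05 and -1.26, a mean of -0.83 ± 0.58 (SD, n = 3), 1.77-fold below wild type. Its 4-week ratios were 0.19, -0.50 and -0.54, a mean of -0.28 ± 0.41 (SD, n = 3). It was the only one of the 5 whose 4-week mean lay below 0, and in replicates 2 and 3 it lay below wild type at both ages. Replicate 1 was the highest at each age, and the ages overlapped. The 4-week mean was -0.52 without replicate 1, -0.17 without replicate 2 and -0.15 without replicate 3.

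STR18, the sulfurtransferase, was the least lowered of the 5. The 8-week replicates gave -0.75, -0.25 and -0.34, a mean of -0.45 ± 0.27 (SD, n = 3), 1.36-fold below wild type. The 4-week replicates gave -0.51, 0.33 and 0.24, a mean of 0.02 ± 0.46 (SD, n = 3). Replicate 1 was the lowest at both ages, and it lay lower at 4 weeks than 8-week replicates 2 and 3. Without replicate 1 the 8-week mean was -0.30.

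Ordered by their 8-week means, the genes ran PELPK1, MLP28, probe 33530, OSM34 and STR18, from lowest to highest. No neighbours in this order were further apart than the larger of their SDs. The widest step, 0.44 between MLP28 and probe 33530, stood against an SD of 0.58. The genes did not share 1 pattern over the replicates: replicate 3 was the lowest for PELPK1, OSM34 and probe 33530, and replicate 1 for MLP28 and STR18. The median over the 5 genes was -0.75, -0.84 and -1.32 in 8-week replicates 1, 2 and 3, against -0.22, 0.11 and 0.24 in the 4-week replicates. Since replicate 3 carried the line in Cy5 and replicate 2 in Cy3, a difference between these replicates cannot be told apart from one between the dyes.

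**Figure D2:**
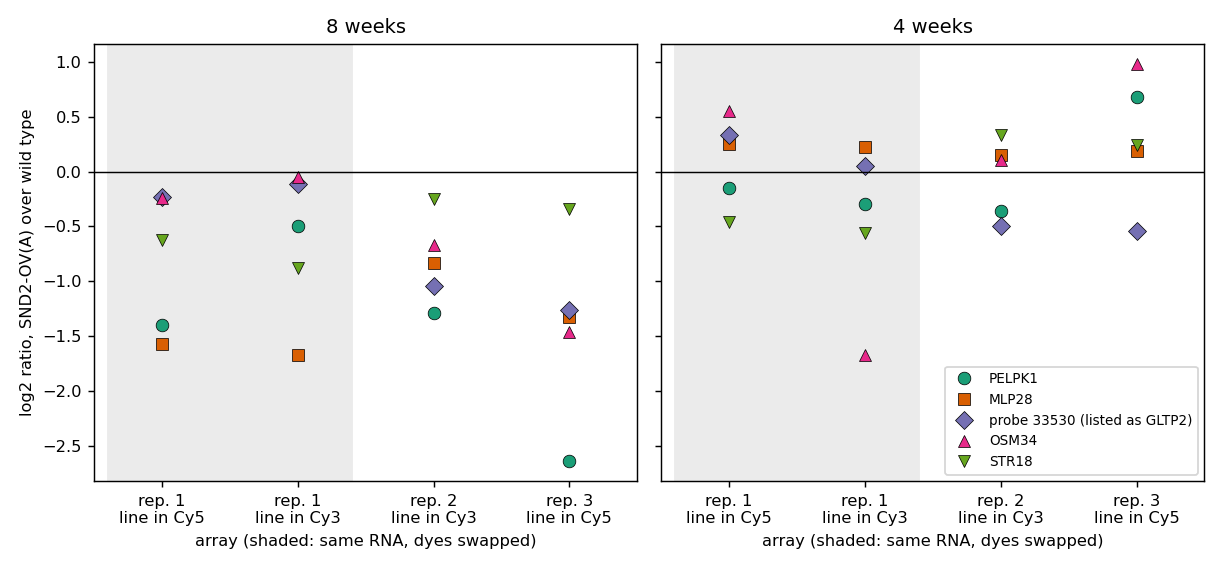
Log2 ratio of SND2-OV(A) over wild type of each of the 5 genes on the 4 arrays of 8 weeks (left) and of 4 weeks (right), with the dye that carried the line; shaded arrays hold the same RNA with dyes swapped. All 8-week points lie below 0, and OSM34 at 4 weeks is at 0.55 and -1.67 in the shaded pair.

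The place of the 5 genes among all probes depended on the array that stood apart. By the 8-week mean, PELPK1 was the 249th lowest of 37685 probes and MLP28 the 324th. With replicate 1 taken from its array with the line in Cy3 only, PELPK1 was the 4th lowest and MLP28 the 10th. Probe 33530 moved likewise to rank 178 with the Cy3 array alone, against 555, OSM34 to 314 against 614, and STR18 to 1190 against 1582. Of the 1041 probes over 1.5-fold lower at 8 weeks, 491 were among the 506 that lay below -3 on the Cy5 array. The means of the genes themselves hardly moved: with the Cy3 array alone they were -1.48 for PELPK1, -1.28 for MLP28, -0.81 for probe 33530, -0.73 for OSM34 and -0.49 for STR18.

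**Figure D3:**
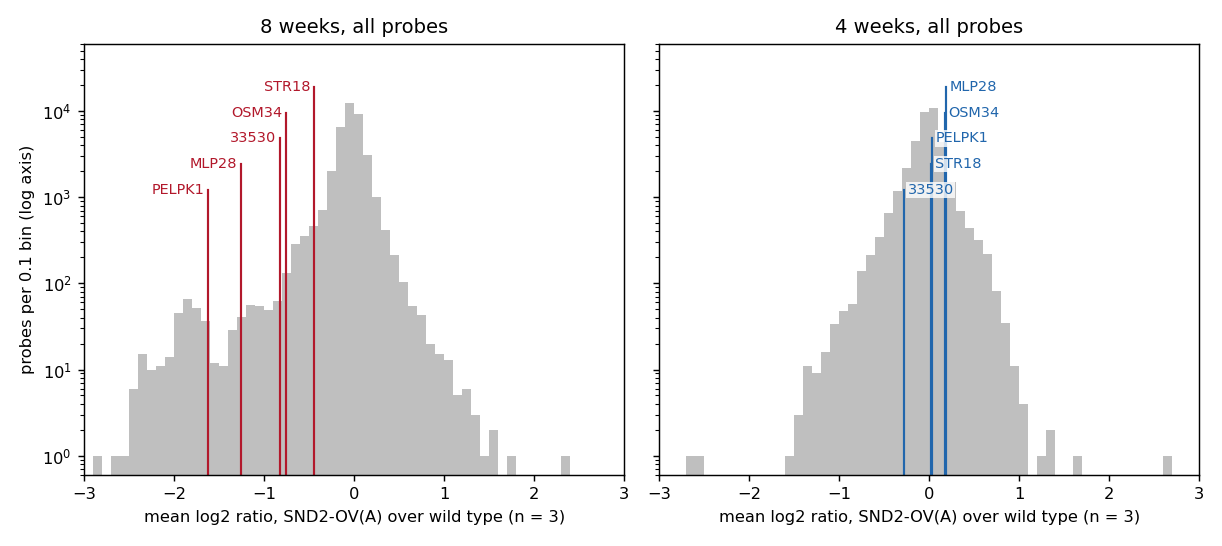
Number of probes by mean log2 ratio of SND2-OV(A) over wild type (bins of 0.1, logarithmic vertical axis) at 8 weeks (left) and 4 weeks (right), with the means of the 5 genes as lines. The 8-week panel has a hump of probes between about -2.5 and -1.5, and the counts rise again from about -1.4 towards 0. Of the 1041 probes over 1.5-fold lower there, 491 were below -3 on the array with the line in Cy5. At 4 weeks the lines lie between -0.28 and 0.19.

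At 4 weeks the design asks whether these genes differ from wild type in younger stems of the same line. None of the 5 passed limma's test there, with an adjusted p of 1 for each after Benjamini-Hochberg adjustment over all probes. The smallest unadjusted p, from the same limma fit, was 0.128, for MLP28. None of the 37685 probes passed at 4 weeks either (0%), and 0.992% had an unadjusted p under 0.05. The overexpressed SND2, at a mean of 3.03 ± 0.32 (SD, n = 3) at 4 weeks and 6.69 at 8 weeks, passed at neither age. A missing call therefore does not show that a gene was unchanged. The 95% intervals from limma ran from -0.08 to 0.47 for MLP28, from -0.64 to 0.70 for PELPK1 and from -0.71 to 1.06 for OSM34. They ran from -0.80 to 0.24 for probe 33530 and from -0.55 to 0.59 for STR18. The intervals of OSM34, PELPK1, probe 33530 and STR18 thus reach differences over 1.5-fold, and that of MLP28 does not.

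The 8-week minus 4-week difference in log2 ratio was -1.66 for PELPK1, -1.45 for MLP28, -0.93 for OSM34, -0.54 for probe 33530 and -0.47 for STR18. That of OSM34 depended on the replicates, at -0.18 without replicate 3, -1.61 without replicate 1 and -0.53 with only the Cy3 arrays of replicate 1. That of PELPK1 was -0.83 without replicate 3. The replicates of the 2 ages did not overlap for 2 of the 5 genes, PELPK1 and MLP28. In limma, 0 probes passed for the difference between ages and 1.6% had an unadjusted p under 0.05. Over all probes, 4.36% had every 8-week replicate below every 4-week replicate. For the other 3 genes at least 1 replicate of 4 weeks lay within the range of 8 weeks or below it. The SDs of OSM34 and PELPK1 were among the wider ones at both ages, above those of 94.7% and 97.0% of probes at 8 weeks and of 90.9% and 84.1% at 4 weeks, whereas the 4-week SD of MLP28 exceeded that of only 3.44% of probes.

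Other members of the 5 families were looked up to see whether the low values ran through them. Of 95 listed family genes the annotation named 29, of which 0 passed limma's test at 8 weeks and 0 at 4 weeks (0% of all probes passed at 8 weeks). An unadjusted p under 0.05 was reached by 2 of the 29 at 8 weeks, where the share of all probes was 3.5%, and by 0 at 4 weeks. The median of the 29 mean log2 ratios was -0.02 at 8 weeks and -0.01 at 4 weeks, near the all-probe medians of -0.03 and -0.00, and 18 of the 29 lay below 0 at 8 weeks, where 62.0% of all probes did. Over 1.5-fold lower were 2 of them and over 1.5-fold higher 1, where 0.456% of all probes were over 1.5-fold higher.

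Among the 8 thaumatin-like genes measured, relatives of OSM34, the mean log2 ratios at 8 weeks ran from -0.81 for AT1G73620 to 0.38 for AT4G38660. AT1G73620 had -0.57, -1.93 and 0.07 in the 8-week replicates, so that replicate 2 set its mean. AT4G38660 had 0.53, 0.17 and 0.44, above wild type in all 3. The others lay between, at -0.21 for AT5G40020, -0.18 for AT1G20030, -0.06 for AT1G75800, -0.03 for AT4G38670, -0.00 for AT1G70250 and 0.21 for AT2G28790. Their median was -0.05.

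The hydroxyproline-rich wall proteins, set beside PELPK1, had 3 measured members. HRGP1, an extensin-type protein, had a mean of -0.28 ± 0.63, AT3G24480 of 0.32 ± 0.33 and AT4G18670 of 0.21 ± 0.51 (SD, n = 3 each) at 8 weeks. The extensin EXT3, named only through the study's called list, had 0.18, -1.37 and -1.39 in the 8-week replicates.

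Of the major latex proteins 9 were measured besides MLP28. AT1G14950 had -3.11, -1.52 and -0.61 at 8 weeks, against 0.25, -0.66 and 0.71 at 4 weeks, and the ages overlapped. Its 8-week mean of -1.75 ± 1.27 (SD, n = 3) rested on replicate 1, whose pair gave -6.15 on the Cy5 array that stood apart and -0.07 on the Cy3 array. The mean was -0.74 with the Cy3 array alone and -1.07 without replicate 1, where MLP28 had -1.28 and -1.08. AT4G23680 and AT1G23130 had means of 0.61 and 0.41, each above wild type in 2 of 3 replicates. The means of AT1G23120, AT1G24010, AT3G26460, AT4G23670, AT1G14940 and AT1G70880 lay between -0.21 and 0.02. The family therefore held low, near-zero and high values side by side, with a median of -0.03. MLP165, known here through the study's called list, had -0.80, -0.50 and -0.76 at 8 weeks.

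No lipid transfer protein was named by the annotation. Through the called list, LTP5 had 0.86, 1.28 and 1.11, AZI1 1.88, 0.67 and 0.86, and EARLI1 1.67, -0.22 and 0.87 at 8 weeks. AZI1 takes part in the priming of systemic immunity. These 3 stood above wild type in at least 2 of 3 replicates, on the other side of 0 from probe 33530, and they too come from the study's called list. They are set beside LTP2, not GLTP2, and which of these probe 33530 measures was not settled. The 9 measured sulfurtransferases of the rhodanese type, CaS, TROL, AT3G25480, AT1G09280, AT1G17850, AT2G42220, AT3G08920, AT4G27700 and AT2G21045, had means between -0.15 and 0.10 at 8 weeks. All of them lay closer to 0 than STR18. A probe of the called list with the identifier of SEN1, a rhodanese protein of ageing leaves, had 1.04, -0.32 and 1.51. It was another of the 5 whose identifier contradicts the gene name in that list. Which gene it measures was not settled either.

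**Figure D4:**
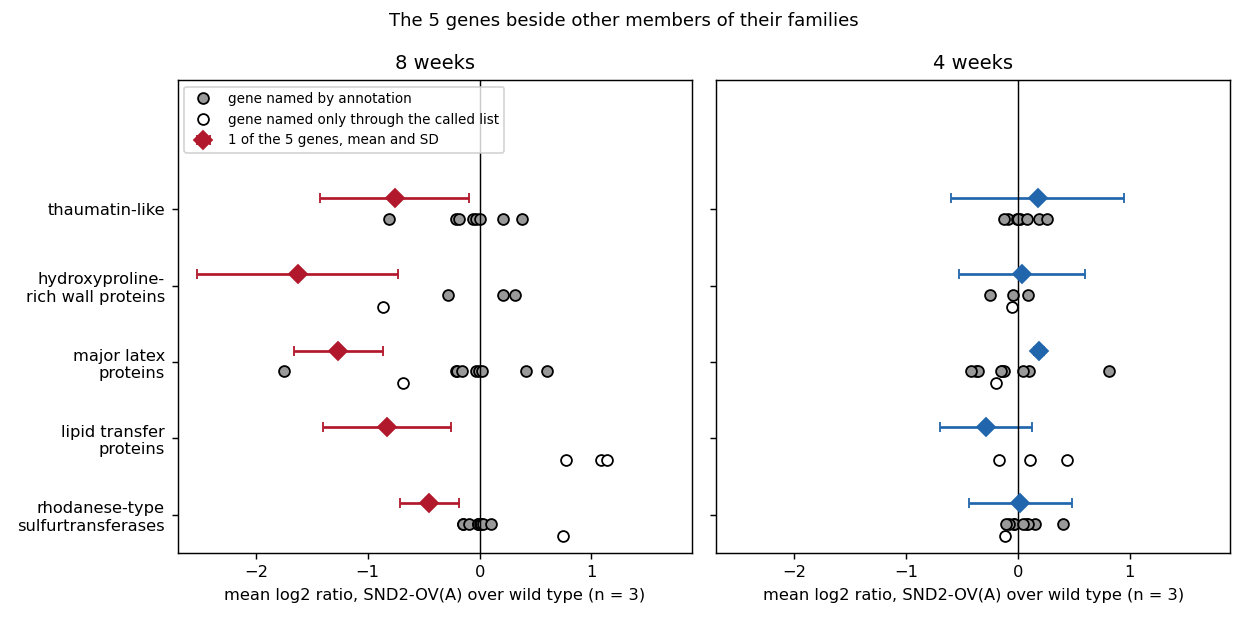
Mean log2 ratio of SND2-OV(A) to wild type of the 5 genes (diamonds, with SD over 3 replicates) and of other genes of their families (circles, filled where the annotation named the probe and open where only the study's called list did) at 8 weeks (left) and 4 weeks (right); the lipid transfer row holds probe 33530. At 8 weeks filled circles lie on both sides of 0, from -1.75 (AT1G14950, -0.74 with the Cy3 array of replicate 1 alone) to 0.61.

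Genes that report on defence hormones and stress were few on the annotated part of the array, with 7 measured of 120 listed. None of the 7 passed limma's test at either age, and 6 lay below 0 at 8 weeks, beside the 62.0% of all probes. The lowest was AT5G38710, a proline dehydrogenase gene listed with abscisic acid and osmotic stress, at -0.56, -0.03 and -1.22 in the 8-week replicates (mean -0.60). The cold- and drought-induced COR47 was the highest of that list, at -0.05. THI2.1, a thionin induced by jasmonate, had a mean of -0.27, the glutathione transferase GSTU25 of -0.07, the heat-shock protein gene ATHSP22.0 of -0.04 and BCAT4, of glucosinolate synthesis, of 0.01. No salicylic acid gene was measured by this route.

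A further 11 defence and stress genes were known only through the study's called lists. VSP1, a storage protein induced by jasmonate, had -1.20, -0.17 and -2.37 at 8 weeks, and the ethylene-response factor gene ERF13 had -0.91, -0.82 and -2.34. Both were lowest in replicate 3, as were PELPK1, OSM34 and probe 33530. The other called-list genes of the jasmonate and ethylene list, the lipoxygenase gene LOX4 and the defensin gene PDF1.3, had 8-week means of 0.10 and -0.02. Their 4-week means were -0.66 and -0.75. The called lists hold genes called at either age, so the age that selected a gene can differ. Of the 5 salicylic acid genes, BGL2, a secreted glucanase, and PBS3, which acts in salicylic acid synthesis, had 8-week means of 0.64 and 0.62. BGL2 was at -0.09 in replicate 2. NIMIN1 and ACD6 had means of 0.79 and 0.60, and WRKY46 had -0.73, -0.49 and 0.93 (mean -0.10). NCED3, of the abscisic acid list, and FSD1, of the oxidative stress list, had 8-week means of -0.11 and 0.19. At 4 weeks WRKY46, NCED3 and FSD1 had means of -0.69, -1.09 and -0.73. The 11 genes are no independent evidence, having been selected on these arrays.

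Markers of tissues that a stem holds were measured for 5 of 62 listed genes. The light-harvesting gene LHCB4.3 had -0.49, -0.54 and -1.19 at 8 weeks, below wild type in all 3 replicates with replicate 3 lowest, and RCA, the activator of Rubisco, had a mean of 0.06. IRX15, of xylan synthesis in secondary walls, had 0.69, 0.14 and 1.08, above wild type in all 3. The phloem sugar exporter SWEET11 had 0.66, 0.96 and -0.28, and the senescence marker SAG29 a mean of -0.09. SAG12, a protease of ageing leaves named only through the called list, had -0.97, 0.05 and -2.43, with replicate 3 lowest as for PELPK1, OSM34 and probe 33530. The probe with the identifier of SEN1, also listed as a senescence marker, is given above. The 10 secondary-wall genes named only through the called list were all highest in 8-week replicate 3, among them CESA4 at 0.56, 0.12 and 1.95. An extreme value in replicate 3 was thus not particular to PELPK1, OSM34, probe 33530 and the genes likened to them. Of 12 epidermis markers none was named by the annotation. None of the 5 annotated markers passed limma's test at 8 weeks, ratios carry no expression level against which a tissue could be checked, and the part of such tissue shifts in the low values of the 5 genes was not tested.

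The annotated probes whose 6 replicate ratios ran closest to the median of the 5 genes were those of AT4G09060 (Pearson r = 0.99), AT4G11610 (0.97), AT4G13650 (0.97), XPO1B (0.96) and AT1G50440 (0.96). This is a description over 6 ratios that share their arrays and fall into 2 ages, and 48 of 7438 probes compared (0.645%) had r over 0.9. XPO1B, an exportin for nuclear export, was also low in size, at -0.82, -0.71 and -0.86 in the 8-week replicates, against -0.34, -0.14 and -0.01 in the 4-week replicates. AT4G09060 had 8-week values of -0.27, -0.32 and -0.59. AT4G13650 followed the shape only, with a mean of 0.00 at 8 weeks and 0.26 at 4 weeks.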

How the data were processed

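The deposited values are log2 ratios of the line over wild type, which the authors made with an Axon GenePix scanner, GenePix Pro and limma; the background correction is not given in the sources used here. Intensities were not used here, so no limit from signal over background could be set, and the number of arrays limits the precision. Dye-swapped arrays were averaged first (n = 3 per age). limma 3.58.1 in R 4.3.3 (lmFit, eBayes) was fitted per age with an intercept only, and the ages were compared in 1 fit of 6 ratios. Benjamini-Hochberg adjustment ran over 37685 probes, with calls at an adjusted p under 0.05. The fit was tested on simulated data. No probe was filtered. The annotation named 7440 probes (7234 genes), and 7628 were named with the study's called lists added. Columns of the authors' own comparisons were not used. The members and the 16 lists (277 genes) were chosen with earlier results of these data known. Named genes were the members, SND2, family genes named by the annotation, the highest and lowest gene of every other list, and the 5 likest probes. PBS3, BGL2, VSP1, ERF13 and the other genes of the called lists were picked after their values were seen. Alternatives covered the dye-swapped pair, a dye term, centring, scaling, the prior, 1 fit of both ages, the replicate block and each replicate left out. RefSeq supplied gene neighbours; no sequence is shown.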

Additional observations from a re-analysis of the deposited data

Results flagged for a closer look

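Of 50 named probes looked at, 2 lay below wild type in every 8-week replicate and above it in every 4-week replicate. The share of all probes was 1.52%. The 50 hold the members and the probes picked for their likeness to them, so nothing is read from this count. MLP28 had an 8-week minus 4-week difference of -1.45, and AT4G11610 one of -0.34, with 8-week values of -0.20, -0.13 and -0.30 against 4-week values of 0.04, 0.21 and 0.14. Neither difference was tested, since MLP28 was chosen for its 8-week values and AT4G11610 for its likeness to the 5 genes.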

How the results depend on the processing

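The 8-week means of the 5 genes kept their sign and moved by less than 1 SD under all 40 alternatives run on them. Much of this was fixed beforehand. With 3 replicates, leaving out 1 cannot move a mean by 1 SD. All 5 genes lay below 0 on all 4 arrays of 8 weeks, so dropping arrays could not turn a sign. Leaving out replicate 3 took the difference between ages to -0.18 for OSM34 and -0.83 for PELPK1, and the other 43 of 45 values of that difference moved by less than 1 SD. At 4 weeks 38 of 45 values kept their sign, and adjusted p ran from 0.995 to 1. OSM34 turned to -0.19 with only the Cy3 array of replicate 1 and to -0.23 without replicate 3. With a dye term, for which the correlation of the paired arrays was taken from all 8, PELPK1 turned to -0.010 and STR18 to -0.070. Without replicate 3 PELPK1 turned to -0.29 and STR18 to -0.09, and without replicate 2 STR18 turned to -0.13. With 1 replicate left out the 4-week means thus ran from -0.23 to 0.54 for OSM34, from -0.29 to 0.23 for PELPK1, from -0.13 to 0.29 for STR18 and, with no change of sign, from -0.52 to -0.15 for probe 33530. The causes were not tested. Leaving out 1 replicate gave an 8-week median over the 5 genes of -1.08 to -0.61 and a 4-week median of -0.15 to 0.21. Probes called numbered 0 at each age and for the difference (1319, 374 and 603 at an unadjusted p under 0.05 at 8 weeks, at 4 weeks and for the difference), but 2 at 8 weeks and 2 at 4 weeks with both ages in 1 fit, and 0 to 3 at 8 weeks when a replicate was left out: 3 without replicate 1, 1 without replicate 2 and 0 without replicate 3. With the replicate block the difference had 0 calls, and 843 probes at an unadjusted p under 0.05. Same-numbered replicates correlated at -0.02, 0.12 and 0.16 over probes. The 8-week replicate 1 correlated best with 4-week replicate 2 (0.08), and 8-week replicates 2 and 3 each with the same number. Replicates 2 and 3 carried the same dye at both ages, so these correlations cannot tell pairing from dye. The numbers were not taken to pair the samples. None of the 5 genes had several annotated probes, so an average over probes was not run.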
